A study of Mus musculus with 30 samples.

Results

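The S-phase kinase and checkpoint genes described here are 10 genes whose products decide when replication origins fire and what a cell does when forks stall: Cdc7, Dbf4, Atr, Atm, Chek1, Clspn, Timeless, Tipin, Wee1 and Cdc25b. They were chosen by name, out of 20558 protein-coding genes on chromosomes 1 to 19, and each was placed against the replication initiation zones of mouse embryonic stem cells. The zones come from OK-seq, which sequences Okazaki fragments by strand and so shows where leftward and rightward forks part. The library was made from wild-type cells of E14TG2a, an established line of mouse embryonic stem cells kept in medium with LIF, a GSK3 inhibitor and a MEK inhibitor, after 2 min of labelling with 10 µM EdU. It is 1 of 30 samples of a series on how the histone-binding part of the helicase subunit MCM2 contributes to passing old and new histones to the daughter strands; the other 29, SCAR-seq and input libraries of wild-type cells and of the mutant clones MCM2_2A #1 and #2, were not analysed here.

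Origins are licensed before S phase and fired during it. The kinase DDK, made of Cdc7 and its activator Dbf4, phosphorylates the MCM helicase so that it can start unwinding. When a fork stalls, the kinase ATR is activated on exposed single-stranded DNA and, with the help of claspin and the Timeless and Tipin proteins that ride with the fork, switches on the kinase CHK1, which holds back further origins. ATM is the related kinase that responds to broken DNA. WEE1 adds an inhibitory phosphate to cyclin-dependent kinases and CDC25 phosphatases remove it, so the same checkpoint reaches the cell cycle through them. Embryonic stem cells divide fast, with a short G1 phase, and are known to rely strongly on ATR and CHK1.

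The list holds 2844 zones. Each has a breakpoint bin of 1 kb, where forks part, and a left and a right edge. The distance from the breakpoint to each edge is called an arm here, no arm is longer than 100 kb, and the width is the sum of both arms. The zones had a median width of 112 kb, with quartiles of 82 and 138 kb. A distance to a breakpoint is taken to the centre of that bin and so is resolved to 0.5 kb either way. With 1 library there is no replicate error, and since the list has no read counts the depth behind each zone is unknown; what follows describes positions, with no test. Gene positions are those of RefSeq on GRCm38.p6, the build mm10 that the list uses. The strand, taken from the RefSeq promoter table, was given for 8 of the 10 genes and not for Tipin and Wee1.

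Positions of the 10 genes ranged from inside a zone to over 1 Mb from any. Cdc25b, Dbf4, Tipin and Clspn, 4 of the 10, had an end inside a zone, against 32.4% of all protein-coding genes. With Chek1, 5 of 10 reached to within 20 kb of a zone, against 38.5% of all. Chek1, at 18.3 kb, lay just within this limit, and the next gene, Wee1, was 96.1 kb from a zone. At a limit of 50 kb the count was again 5, against 45.4% of all genes, and at 5 kb it was 4, against 34.2%. The median distance from the nearer gene end to a breakpoint was 101.2 kb for the 10 genes and 129.1 kb for all protein-coding genes. The share of all genes moved with the zones and gene parts used, while a count among 10 genes can move only by whole genes. When zones under the median width of 112 kb were left out, 5 of 10 were near a zone, against 23.4% of all genes, and 4 were inside one, against 20.1%. The zones of these 5 genes were 122 to 151 kb wide, so this setting could not lower the members' counts. In the central part of zones 4 of 10 had an end, against 18.4% of all genes. The median distance to a breakpoint was 101.2 kb against 323.3 kb with the wide zones. Chek1 and Wee1, between which the members' median lies, have nearest zones of 151 and 123 kb. The wide zones therefore could not change that median. It was 126.2 kb against 128.3 kb when the point midway between the edges replaced the breakpoint. Whether 10 genes chosen with results known differ from all genes was not tested.

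Of 5 functional pairs, 4 had 1 partner inside a zone and the other outside: Dbf4 inside and Cdc7 outside, Tipin inside and Timeless outside, Clspn inside and Chek1 outside, Cdc25b inside and Wee1 outside. In the remaining pair, the apical kinases Atr and Atm, neither gene reached a zone. The pairs were formed with the positions known, and no zone held more than 1 of the 10 genes. With 4 genes inside zones, at most 4 pairs could be split. How many would be split if the 10 genes were paired without regard to function was not computed, so the count says nothing about the pairs.

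**Figure D1:**
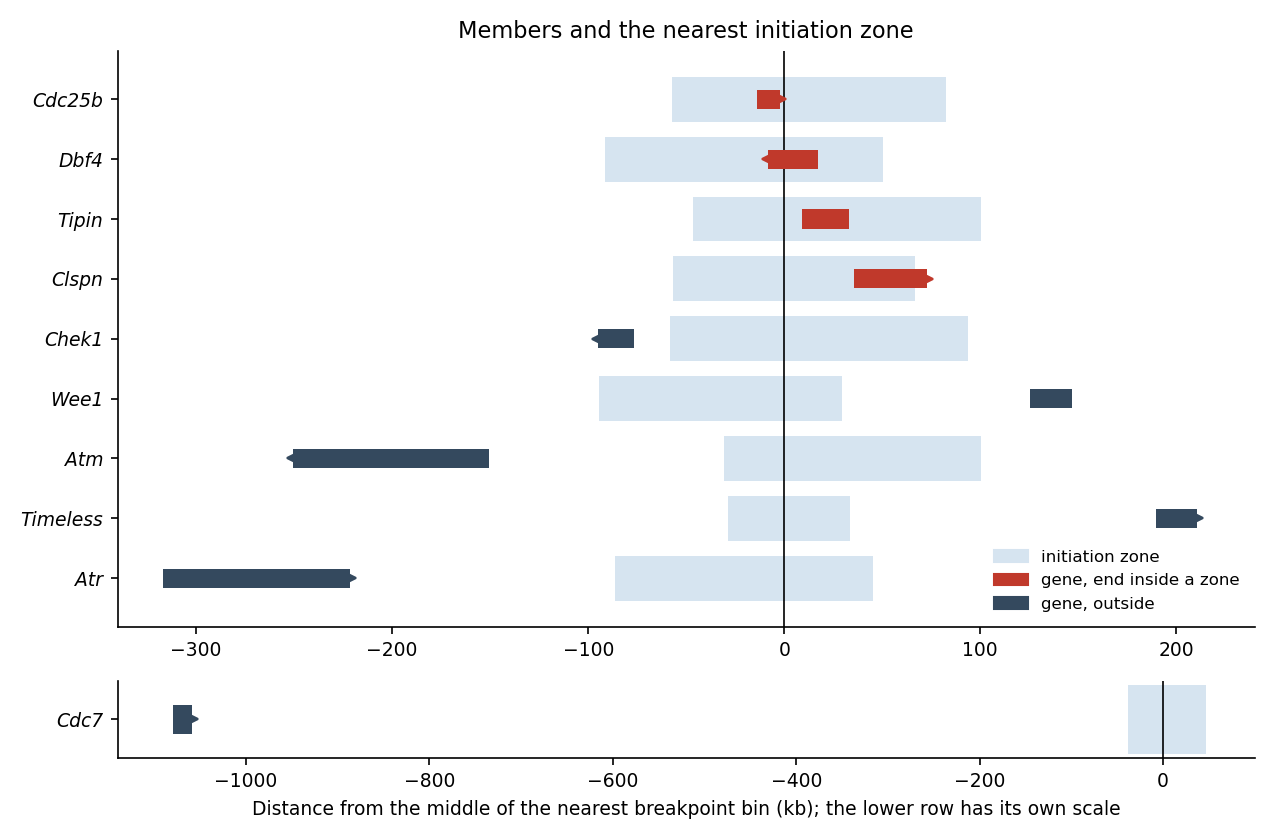
Each row shows a gene (dark bar, with an arrowhead at the end towards which it is transcribed where strand is given) and its nearest initiation zone (pale bar), on an axis of distance in kb from the middle of the breakpoint bin; Cdc7 has its own scale. The 4 genes in red, Cdc25b, Dbf4, Tipin and Clspn, have an end inside the zone, and the others stand at 18.3 to 1021 kb from its edge.

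The start regions of the genes that lay in or next to a zone are shown here, with Cdc7, the gene farthest from any zone, for contrast. Tipin, also inside a zone, had no start region in the promoter table. Cdc7 is shown at its second listed start, which held an E2F word. Its first, nearer to the annotated start of the gene, held none. Each line gives 300 bases of the RefSeq promoter table (GRCm38.p6), 250 before and 50 from the start onward, written along the gene's own strand. Capitals mark matches on either strand to words of the E2F site (TTTCCCGC, TTTGGCGC, TTTCGCGC, TTTGCCGC or GGCGGGAA), the CCAAT box (CCAAT), the cell cycle homology region (TTTGAA or TTCGAA) and the MluI box (ACGCGT). E2F factors are known regulators of S-phase genes. The words TTTCCCGC and GGCGGGAA overlap on opposite strands, and all words were chosen after the promoters had been read.
Dbf4, chr5:8422667-8422966, minus strand: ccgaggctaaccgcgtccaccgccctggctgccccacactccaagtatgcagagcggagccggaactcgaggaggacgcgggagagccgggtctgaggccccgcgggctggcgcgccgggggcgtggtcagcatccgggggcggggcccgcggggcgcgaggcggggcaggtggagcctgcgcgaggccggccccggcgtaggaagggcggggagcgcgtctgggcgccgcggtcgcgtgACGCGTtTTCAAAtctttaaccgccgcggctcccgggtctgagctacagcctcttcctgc
Cdc25b, chr2:131186698-131186997, plus strand: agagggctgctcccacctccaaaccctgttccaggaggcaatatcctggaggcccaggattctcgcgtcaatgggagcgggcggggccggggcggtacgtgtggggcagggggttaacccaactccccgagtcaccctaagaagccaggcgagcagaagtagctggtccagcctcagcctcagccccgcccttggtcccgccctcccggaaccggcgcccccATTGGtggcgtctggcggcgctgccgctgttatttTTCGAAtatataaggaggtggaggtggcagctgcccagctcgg
Clspn, chr4:126556730-126557029, plus strand: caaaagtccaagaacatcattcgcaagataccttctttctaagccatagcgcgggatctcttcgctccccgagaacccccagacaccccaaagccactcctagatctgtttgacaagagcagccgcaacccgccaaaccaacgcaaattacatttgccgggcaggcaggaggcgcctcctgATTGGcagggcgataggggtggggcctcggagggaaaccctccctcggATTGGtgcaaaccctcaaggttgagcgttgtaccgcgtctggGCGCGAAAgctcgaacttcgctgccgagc
Chek1, chr9:36726609-36726908, minus strand: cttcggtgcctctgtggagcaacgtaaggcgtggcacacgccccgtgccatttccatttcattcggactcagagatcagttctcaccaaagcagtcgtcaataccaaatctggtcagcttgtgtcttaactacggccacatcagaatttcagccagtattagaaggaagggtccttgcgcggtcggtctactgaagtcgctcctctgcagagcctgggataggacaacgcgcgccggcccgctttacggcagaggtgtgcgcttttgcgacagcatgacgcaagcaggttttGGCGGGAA
Cdc7, second listed start, chr5:106964311-106964610, plus strand: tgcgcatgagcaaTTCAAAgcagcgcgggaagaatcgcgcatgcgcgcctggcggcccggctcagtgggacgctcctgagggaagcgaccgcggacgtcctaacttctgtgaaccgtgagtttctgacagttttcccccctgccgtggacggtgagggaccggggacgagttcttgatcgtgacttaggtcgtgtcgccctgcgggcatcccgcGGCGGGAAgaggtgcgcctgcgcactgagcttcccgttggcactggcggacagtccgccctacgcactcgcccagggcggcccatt

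The promoter table held 9 start regions for 8 of the 10 genes. An E2F word stood in those of Chek1, Clspn and Cdc7, the last at its second start, 3 of 8 genes, against 5.72% of the 16457 protein-coding genes with a promoter in the table. Of all 20085 promoters, 4.95% held one. The word of Clspn (GCGCGAAA) began 21 bases after the start and that of Chek1 (GGCGGGAA) 42 bases after it. Chek1 and Cdc7 matched by GGCGGGAA only, so without this word Clspn alone would hold an E2F word. Since all words were chosen with these promoters read, the shares of members and of all genes given here are no independent comparison. The MluI box stood in Dbf4 alone, 1 of 8 genes, against 2.75% of genes with a promoter, and was followed after 1 base by a cell cycle homology word. Such a word also stood in Cdc25b, Atr and Cdc7, so in 4 of 8 genes, against 19.5%. A CCAAT word occurred in Clspn at 69 and 21 bases before the start, in Cdc25b at 28 bases before it, and in Atm further upstream, 3 of 8 genes, against 42.3%. E2F words thus appeared both in genes in or next to a zone (Clspn, Chek1) and in the most distant gene (Cdc7). These are matches of letters and say nothing of binding.

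The share of G and C in these start regions ran from 52.3% in Timeless to 74.7% in Dbf4. It was above the median of promoters of protein-coding genes (57.0%) in 7 of the 9. Dbf4 had 42 CpG pairs and the median promoter 14. Timeless, whose listed start lies within its annotated span, had 5.

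DDK was the most unequal pair. Dbf4, the activator (chromosome 5, 8396969 to 8422725, minus strand), lay wholly inside a zone that ran from 8314001 to 8456000, 141 kb wide; 21.8% of zones were wider. Its body held the breakpoint bin, 8405001 to 8406000, as did none of the other 9 genes, so 1 of 10, against 4.02% of all protein-coding genes and 10.8% of those with an end inside a zone. Longer genes hold a breakpoint more often. Dbf4 is 25.8 kb long, and the median length was 22.6 kb for the 10 genes and 17.6 kb for all. The part of gene length in this count was not tested. With the point midway between the zone edges in place of the breakpoint, Tipin held it and Dbf4 did not. The breakpoint lay 8.53 kb from the gene's 3′ end and 17.2 kb from the start, so the list places the parting of forks inside the gene. Exons and introns were not analysed here. The left arm of 91 kb was 1.82 times the right arm of 50 kb.

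Dbf4 shared its zone with 2 other protein-coding genes. Slc25a40, which encodes a mitochondrial carrier, starts on the plus strand 5 bp from the start of Dbf4, and its nearer end lay 17.2 kb right of the breakpoint. Adam22, a gene of the ADAM family active at synapses, reaches into the left arm with its start, 37.2 kb from the breakpoint. The next breakpoint was 667 kb away, against a median of 360 kb over all zones.

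Cdc7, the kinase itself (chromosome 5, 106964315 to 106984440, plus strand), lay in the opposite setting. Its nearest zone, from 108005001 to 108090000, began 1021 kb to its right, and the nearest on its left ended 1254 kb away. The zone-free stretch that held it measured 2295 kb, against a median of 508 kb over all 2737 stretches between zones, and 4.46% of stretches were longer. Here and below each stretch is counted once, whatever its length or genes, so such shares are not shares of genes. It had no breakpoint within 1 Mb, as did 3.66% of all protein-coding genes, and 2.8% of genes lay farther from a zone. Only 6 other protein-coding genes were centred within 500 kb of it, against a median of 15 for all genes. Dbf4 had 7, so in this the partners were alike. Its nearest zone, 84 kb wide, held an end of Mtf2, which encodes a partner of the Polycomb complex PRC2. Cdc7 and Dbf4 share chromosome 5 but are 98542 kb apart, with 89 breakpoints between them.

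Atr and Atm, the apical kinases and by far the longest of the 10 genes at 95.6 and 99.7 kb, both stood outside zones. Of protein-coding genes of 90 to 110 kb, 47.2% had an end inside a zone. Atr (chromosome 9, 95857597 to 95953217, plus strand) ended 134.8 kb left of a zone at 96088001 to 96220000, with the breakpoint 221.3 kb away. On its other side the nearest zone was 313.6 kb away, and the stretch between both zones, 544 kb, was close to the median. The zone held ends of Gk5, a glycerol kinase family gene whose body held the breakpoint, and of Tfdp2, which encodes a dimerization partner of E2F factors. At its start, Atr overlaps the minus-strand gene 1700065D16Rik by its first bases, with starts 285 bp apart.

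Atm (chromosome 9, 53437122 to 53536828, minus strand) started 120.2 kb left of a zone and 150.7 kb from its breakpoint. That zone, 53657001 to 53788000, was among the lopsided ones, with a left arm of 30 kb and a right arm at the 100 kb limit, which 9.56% of zones reached on at least 1 side. A second zone with the same left edge and a breakpoint 62 kb further on overlapped it, reaching 53848000. On the left, by contrast, the nearest zone was 1331 kb away, in a zone-free stretch of 1551 kb that 12.3% of stretches exceeded. The first zone held ends of Rab39, a Rab GTPase gene with the breakpoint in its body, of Cul5, a cullin of ubiquitin ligases, and of Slc35f2. Between Atm and that zone lies Npat, which encodes a coactivator of histone genes and starts 61 bp from the start of Atm in the opposite direction; its nearer end was 81.4 kb from the zone.

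Head-to-head starts were a shared trait of 3 of the 8 genes with a given strand: Dbf4, Atm and Atr each start within 1 kb of a gene that runs the other way. Of all 16457 protein-coding genes with strand, 10.6% do. One of these starts lay inside a zone (Dbf4) and the others 120.2 kb (Atm) and 230.4 kb (Atr) from one. This trait was looked for after the positions had been seen.

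Clspn encodes claspin, the adaptor through which ATR reaches the effector kinase CHK1. Clspn (chromosome 4, 126556957 to 126594533, plus strand) started 35.5 kb right of the breakpoint, in a zone from 126465001 to 126588000. The zone took in 82.6% of the gene and its edge fell 6.53 kb before the gene's end. The arms of 56 and 66 kb were nearly even. The breakpoint itself lay in Ago4, and Ago1 reached into the left arm; both encode Argonaute proteins of the microRNA pathway.

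Chek1 (chromosome 9, 36708482 to 36726658, minus strand) started 18.3 kb short of a zone at 36745001 to 36897000 and 76.8 kb from its breakpoint. With 151 kb this was the widest of the 10 nearest zones, and 13.8% of all zones were wider. Stt3a, an oligosaccharyltransferase gene 2.69 kb from Chek1, lies across the zone's left edge. The zone also held ends of Ei24, Fez1 and Pknox2, with Ei24 nearest to the breakpoint at 6.17 kb. To its left Chek1 faced 1435 kb without a zone. Chek1 and Atm thus both stood near the right border of a zone-free stretch of over 1 Mb, of 1472 and 1551 kb, while Cdc7 stood near the middle of its own.

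The fork protection pair was split as well. Tipin (chromosome 9, 64281491 to 64305422) lay wholly inside a zone from 64226001 to 64373000, 146 kb wide, with its nearer end 8.99 kb right of the breakpoint. The right arm of this zone was at the 100 kb limit and 2.17 times the left arm of 46 kb; this limit is the length at which the list stops. The midpoint of Tipin lay 20.96 kb right of the breakpoint and on the other side (-6.04 kb) of the middle of the zone. The zone also held ends of Map2k1, which encodes the kinase MEK1 of the ERK pathway, of Dis3l, a gene of the exosome 1.33 kb from Tipin, and of Uchl4. MEK is inhibited in the medium in which these cells were grown, and the position of Map2k1 says nothing of its activity.

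Timeless (chromosome 10, 128232063 to 128252941, plus strand) lay 156.1 kb right of a zone from 128014001 to 128076000 and 189.6 kb from its breakpoint. At 61 kb this zone was the narrowest of the 10, and 92.6% of all zones were wider. It held ends of Naca, with the breakpoint in its body, of Ptges3, a co-chaperone gene, and of Prim1, which encodes the catalytic subunit of primase, the enzyme that starts every Okazaki fragment. Timeless had the most crowded surroundings of the 10 genes, with 46 other protein-coding genes centred within 500 kb, and 4 breakpoints within 1 Mb. Cdk2, the S-phase partner of cyclin E and cyclin A, lay 445.0 kb from Timeless with no breakpoint between them.

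Of the genes that set the phosphate on cyclin-dependent kinases, Cdc25b was the nearest of all 10 to a breakpoint. Cdc25b (chromosome 2, 131186436 to 131198511, plus strand) ended 1.99 kb left of the breakpoint bin 131200001 to 131201000, and 1.74% of protein-coding genes had an end nearer to a breakpoint. Its start was 14.1 kb away, so the gene pointed with its end at the breakpoint. The zone, 131143001 to 131283000, was 139 kb wide and held ends of 7 other protein-coding genes, against a median of 3 others over genes inside zones. The nearest to the breakpoint were Ap5s1 at 9.86 kb, Cenpb at 20.4 kb, which encodes the centromere protein CENP-B, and Spef1 at 25.7 kb.

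Wee1 (chromosome 7, 110122059 to 110143299) lay 96.1 kb right of a zone from 109902001 to 110026000 and 125.6 kb from its breakpoint. The left arm of that zone, 94 kb, was 3.24 times the right arm of 29 kb, so the gene stood beyond the short arm. The zone held ends of Tmem41b, of Ipo7, a nuclear import receptor gene, and of Dennd5a. Wee1 had 6 breakpoints within 1 Mb, the most of the 10 genes, against a median of 3 for all protein-coding genes. Those at 596.8 and 602.8 kb from the middle of the gene come from entries with the same edges, so the separate zones are fewer than 6. Cdc25b had 5 breakpoints.

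**Figure D2:**
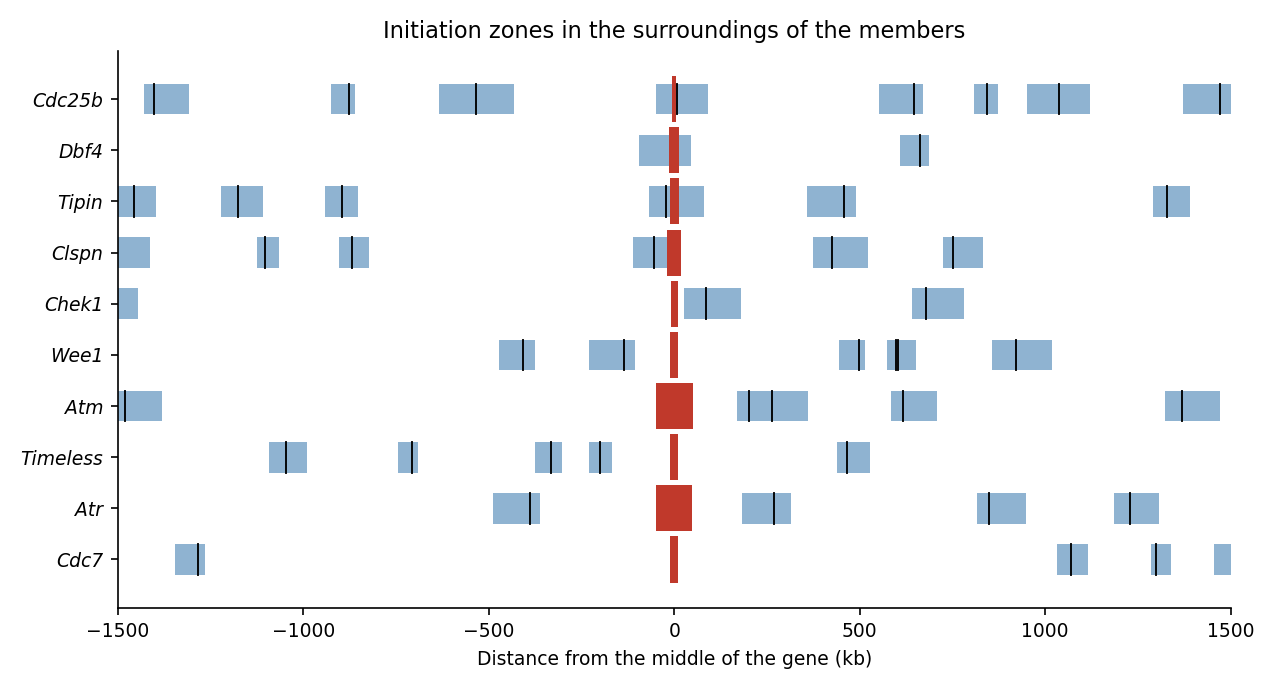
Initiation zones (blue bars, black lines for breakpoints) within 1500 kb of each gene (red bar, drawn to length), on an axis of distance in kb from the middle of the gene. Cdc7 has no zone within 1 Mb, and Chek1 and Atm have zones on the right only up to that distance. Wee1 has 6 breakpoints within it, not all in separate zones.

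Placed among all protein-coding genes, the 10 covered nearly the whole range of distances. Cdc25b, Dbf4 and Tipin, at 1.99, 8.53 and 8.99 kb, were within 10 kb of a breakpoint, 3 of 10 against 7.73% of all genes. Clspn (35.5 kb) and Chek1 (76.8 kb) followed, with 23.7 and 37.2% of genes nearer. Wee1 (125.6 kb) and Atm (150.7 kb) stood on either side of the middle, and Timeless (189.6 kb) and Atr (221.3 kb) had 61.2 and 65.8% of genes nearer. Cdc7, at 1059 kb, had 97.0%. The order of Dbf4 and Tipin is not resolved, since they differ by less than the bin of 1 kb; the other neighbours in this order differ by more than that. How much the breakpoints would move in a repeat library is unknown. Dbf4 and Tipin lay close under the limit of 10 kb, and that count was not redone with the point midway between the zone edges. The gene midpoints of Dbf4, Cdc25b and Tipin lay 4.35, -8.03 and 20.96 kb from the breakpoint. From the midway point they lay 24.8, -20.5 and -6.04 kb.

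**Figure D3:**
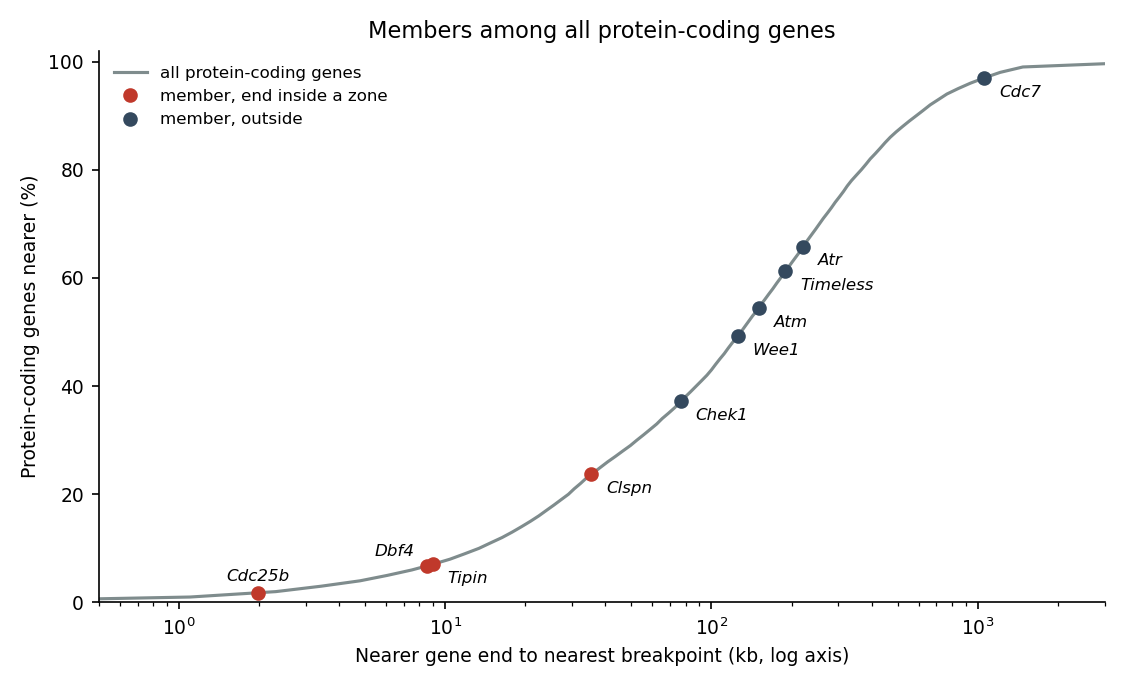
The curve gives, for each distance from the nearer gene end to the nearest breakpoint (x axis, kb, log scale), the percentage of all 20558 protein-coding genes that lie nearer; points are the 10 genes, red where an end lies inside a zone. They run from Cdc25b at 1.99 kb to Cdc7 at 1059 kb.

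The zones of the 4 genes inside were 122 to 146 kb wide, with a median of 140 kb. Over all protein-coding genes with an end inside a zone, each gene counted once, the median zone width was 124 kb, with quartiles of 94 and 146 kb. The 4 zones lay within or at those quartiles. Their nearest other breakpoints were 479 to 667 kb away, further than the median of 337 kb over genes inside zones. None of the 4 zones overlapped another.

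Direction of transcription differed among the genes. A gene transcribed away from the breakpoint runs with the forks that leave it on that side, and of protein-coding genes inside zones, on 1 side of the breakpoint and with strand given, 59.8% pointed away. Clspn pointed away and Cdc25b towards the breakpoint, while Dbf4 ran across it. Among the genes outside, Chek1, Atm and Timeless pointed away from their nearest breakpoint and Atr and Cdc7 towards it. Which forks replicate the genes outside zones was not measured by the list. In all, 5 of the 10 genes lay left of their nearest breakpoint, 4 right of it, and 1 across it.

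Chromosome 9 carried 4 of the 10 genes, Chek1, Atm, Tipin and Atr, at least 10745 kb apart. Of these, Tipin was inside a zone and Chek1 within 20 kb, 2 of 4, against 39.3% of the 1201 protein-coding genes of that chromosome.

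The wider pathway was described with 33 related genes in 6 roles. Of these, 18 (54.5%) had an end inside a zone, and 22 (66.7%) had one inside or within 20 kb, and their median distance to a breakpoint was 56.4 kb. These shares stand above those of all genes (32.4 and 38.5%), but the related genes were chosen with earlier results of these data known. The difference therefore cannot be read as a trait of the pathway. The related genes were also longer (median 31.0 kb against 17.6 kb), and the part of gene length in this difference was not tested. Taken by the gene midpoint, 14 of the 33 were within 20 kb of a zone, against 29.9% of all genes.

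Sensors and activators of the checkpoint, 15 genes, had 7 inside zones (46.7%), against 32.4% of all protein-coding genes. The roles hold few genes each, so their counts are given as descriptions only. The replication protein A gene Rpa2, which coats single-stranded DNA with its partners, had an end 0.86 kb from a breakpoint and held another breakpoint in its body. Etaa1, an activator of ATR, followed at 4.63 kb. The farthest from a zone was Nbn, a subunit of the MRN complex that senses breaks, at 660.6 kb. Among 5 effectors and mediators, 2 (40.0%) lay inside zones: Chek2, the effector kinase of ATM, at 15.3 kb from a breakpoint, and the histone gene H2ax at 56.4 kb. Wdhd1, a fork protein, was 260.1 kb from a zone.

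Of the 5 genes of cyclin-dependent kinases and their regulators, 3 lay inside zones, Cdk2, Cdk1 and Cdc25a, against 32.4% of all protein-coding genes. Cdk2 lay 4.45 kb and Cdk1 14.6 kb from a breakpoint, and Cdc25c was farthest, at 78.4 kb from a zone. Cdc25a, at 18.6 kb, and Cdc25b were thus both inside zones and Cdc25c was not. The kinase Wee1 and its relative Pkmyt1 were both outside, though Pkmyt1 was 19.3 kb from a zone edge.

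Genes for the turnover of claspin and Wee1 had 2 of 3 inside zones, against 32.4% of all protein-coding genes. These 2, Btrc and Fbxw11, are long genes of 169.7 and 104.3 kb, with 9.04 and 23.4% of their length in the zone. By the gene midpoint neither was within 20 kb of a zone. The ubiquitin ligase subunit genes Btrc and Fbxw11 were 19.2 and 24.1 kb from a breakpoint, and the kinase gene Plk1 was 11.4 kb from a zone. Rif1, whose product brings a phosphatase against DDK, was inside a zone, 21.3 kb from a breakpoint. The kinase family of Atr and Atm has 4 further members on the list: Prkdc, Smg1 and Mtor had an end inside a zone, with Prkdc and Smg1 at 18.9 and 30.1 kb from a breakpoint, and Trrap was 78.2 kb from a zone. Of these 6 kinase family genes, Atr, Atm and Trrap were thus outside zones. Prkdc, Smg1 and Mtor are 204.8, 113.1 and 109.1 kb long. Of their length, 2.71, 23.4 and 4.29% lay in the zone of the nearest breakpoint, and Prkdc touched 2 zones. By the gene midpoint none of them was within 20 kb of a zone. Of protein-coding genes of 90 to 110 kb, 47.2% had an end inside a zone, and the part of gene length was not tested.

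**Figure D4:**
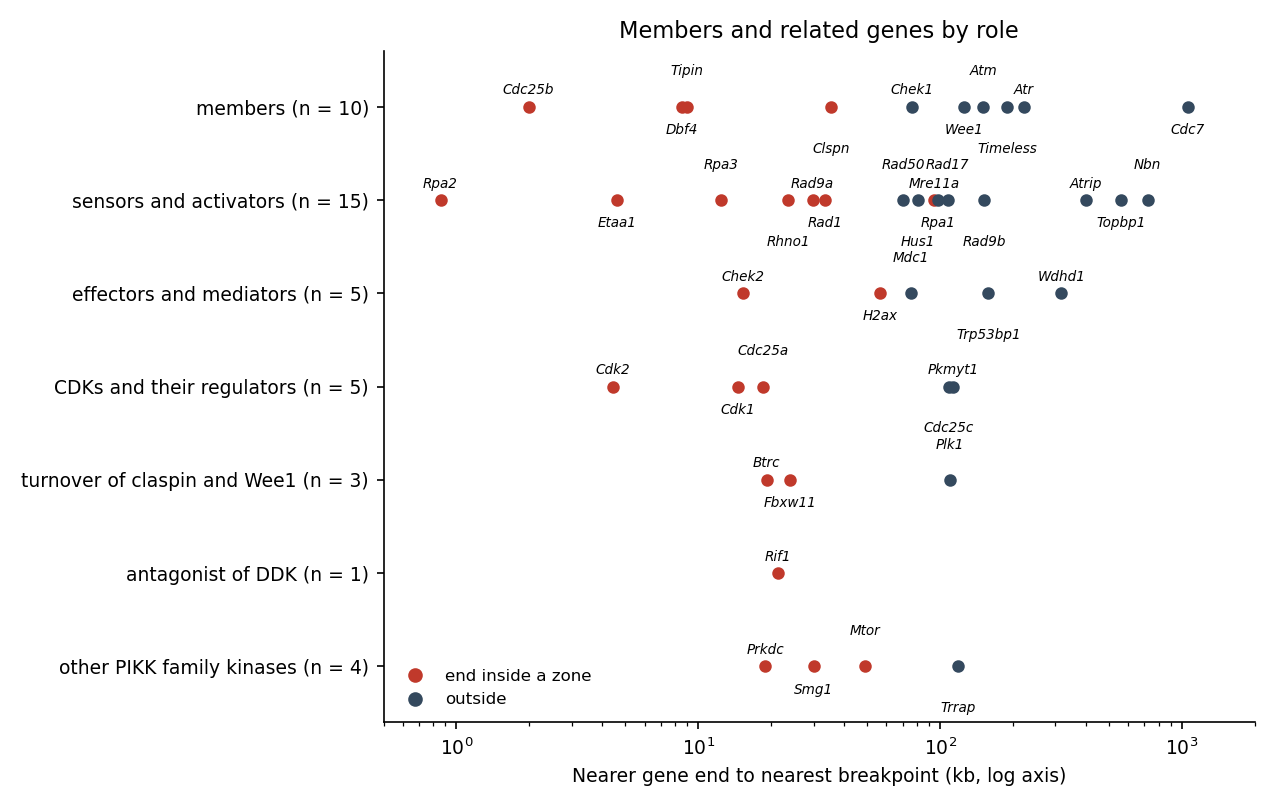
Distance from the nearer gene end to the nearest breakpoint (x axis, kb, log scale) for the 10 members and the 33 related genes, in rows by role; red points have an end inside a zone. The members span 1.99 to 1059 kb and the related genes 0.86 to 722.1 kb.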

How the data were processed

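The data were a list of initiation zones from 1 wild-type OK-seq library. The submitters' processing notes name BWA (0.7.13) and Bowtie, Picard (2.8.2) and SAMtools, Trim Galore (0.4.2), bcl2fastq and the build mm10, with no roles or settings. The deposited values, per the file headers, are distances in bp between a breakpoint bin and a minimum on its left and a maximum on its right. Of which signal, and by which thresholds, is not stated in these sources. The labels describe extraction in the same words for SCAR-seq and OK-seq samples, so how Okazaki fragments were isolated is not known here.

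Positions were converted to count from 1. Distances were computed with Python 3.11.15, pandas and NumPy for every protein-coding gene of the RefSeq gene table (GRCm38.p6) and checked on simulated positions. Genes on scaffolds were left out. Strand came from the RefSeq promoter table, which gave it for 80.1% of protein-coding genes. Either end of a gene counted as its end. The genes, the related genes and their roles were chosen with earlier results of these data known. Named genes were all 10 members; the other genes with an end in each nearest zone (all where 5 or fewer, otherwise the 3 nearest to the breakpoint); and in each related role 1 or 2 genes nearest to a breakpoint and the farthest from a zone. Some genes outside this rule (Npat, 1700065D16Rik, Cdc25a, Pkmyt1 and Mtor) were named after their values were seen. Alternatives were other limits, gene parts, zone sets and breakpoint positions.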

Additional observations from a re-analysis of the deposited data

How the results depend on the processing

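No paired analysis was possible because only 1 library was analysed and no comparison between samples was made. Members near a zone were 4 or 5 under the alternatives run, while the share of all genes near one moved between 23.4% (wide zones, of 112 kb or more) and 45.4% (limit of 50 kb). Members inside a zone were 3 or 4, while the share of all genes inside was 18.4% with the central part of zones, 20.1% with wide zones, 22.5% with gene midpoints and at most 32.9%, with any base of the gene. Chek1 left the first count at 5 kb and with gene midpoints, Tipin left both with only zones that had both arms under 100 kb, and with transcription starts only, 4 of the 8 genes with strand were near. The members' median distance to a breakpoint ran from 101.2 to 126.2 kb. That of all genes ran from 128.3 kb (midway point) to 323.3 kb (wide zones). The difference between the medians nearly vanished with the midway point. With wide zones it grew, but this setting could not change the members' median and could not lower that of all genes, so the growth says nothing about the members. With the point midway between the zone edges in place of the breakpoint, Tipin took the place of Dbf4 as the gene holding it, and the midpoint of Tipin moved from 20.96 kb right of the breakpoint to the left (-6.04 kb); no other member changed side. The related genes near a zone numbered 14 with gene midpoints, against 22. Joining overlapping zones, an alternative added after seeing the data, left 5 members near. The count of members within 10 kb of a breakpoint was not repeated under any alternative. Depth is unknown, so how well a breakpoint is placed could not be judged.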
